A study of Mus musculus with 42 samples.

Results

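The effect of AGN194204, a compound that activates retinoid X receptors (RXRs), was measured by RNA sequencing of mouse bone marrow mesenchymal stromal cells (MSCs), against cells given the solvent dimethyl sulfoxide (DMSO). Every RNA library labelled with AGN194204 or the solvent was taken, which gave 6 AGN194204 and 6 DMSO libraries, 12 of the 24 RNA libraries and of the 42 samples of the series. The other RNA libraries came from cells given 50 nM tributyltin (TBT), an organotin that binds RXR and PPARγ, or 100 nM rosiglitazone (ROSI), a PPARγ agonist. The chromatin libraries were not analysed here.

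All groups held C57BL/6 MSCs from long bones, bought at passage 6 and used at passage 9 to 10, with no genetic change named. After 24 h of attachment the cells received 100 nM AGN194204 or 0.1% DMSO for 48 h in medium with calf serum, and the labels name no inducer of differentiation. The labels number the libraries 1 to 6 in each group and do not say how many mice gave the cells or whether the replicates were separate cultures, so the p-values measure only how far these libraries vary, and that variation may be technical.

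RXR binds DNA mostly as the partner of another nuclear receptor. Pairs with the liver X receptors (LXRs), which sense oxysterols, and with the peroxisome proliferator-activated receptors (PPARs), which sense fatty acids, are called permissive, since an RXR ligand alone can activate them. Pairs with the retinoic acid receptors (RARs), the vitamin D receptor and the thyroid hormone receptors respond mainly to the partner's own ligand. In MSCs the pair of PPARγ and RXR drives the formation of adipocytes.

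The 12 libraries held 3801758 to 5087215 counts on genes, and the totals of the groups did not differ beyond their spread (exact two-sided permutation test, p = 0.357). Of 45317 gene entries, 12529 passed the count filter and were tested. Levels are given in CPM, a gene's reads per 1000000 reads on the genes that passed the filter, after TMM scaling. Differences are log2 fold changes, AGN194204 minus DMSO, ± the standard error of the edgeR fit with n = 6 per group. A gene was called at a Benjamini-Hochberg adjusted p under 0.05 over all genes tested. The first principal component held 32.6% of the variance of the 12 libraries, with all AGN194204 libraries at 12.8 or above and all DMSO libraries at -13.0 or below. The share of reads that fell on more than 1 gene was 1.95% to 2.01% with AGN194204 and 1.90% to 1.95% in DMSO (exact permutation p = 0.00649, adjusted p = 0.0455 over 7 library measures). Its part in the results was not tested.

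AGN194204 raised 1600 genes, which is 12.8% of those tested, and lowered 1414, or 11.3%. The rises were larger than the falls. Among the called genes 142 rose at least 2-fold (1.13% of genes tested), 24 of them at least 4-fold, while 33 fell at least 2-fold (0.263%) and 0 fell 4-fold. In 865 genes (6.90%) every AGN194204 library lay above every DMSO library, and in 586 (4.68%) every one lay below. The median log2 fold change of all genes tested was -0.003. TMM scaling itself sets the centre near 0, so this value is no separate check of it. Higher genes made up 53.1% of the calls, against 75.2% when libraries were scaled to the added ERCC spike-in RNAs, with 908 rises and 300 falls. The median of all genes tested was then 0.009, so the larger share of rises came with little move of the centre. Spike-in counts were 0.376% to 0.502% of the counts on genes in DMSO and 0.406% to 0.465% with AGN194204.

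**Figure D1:**
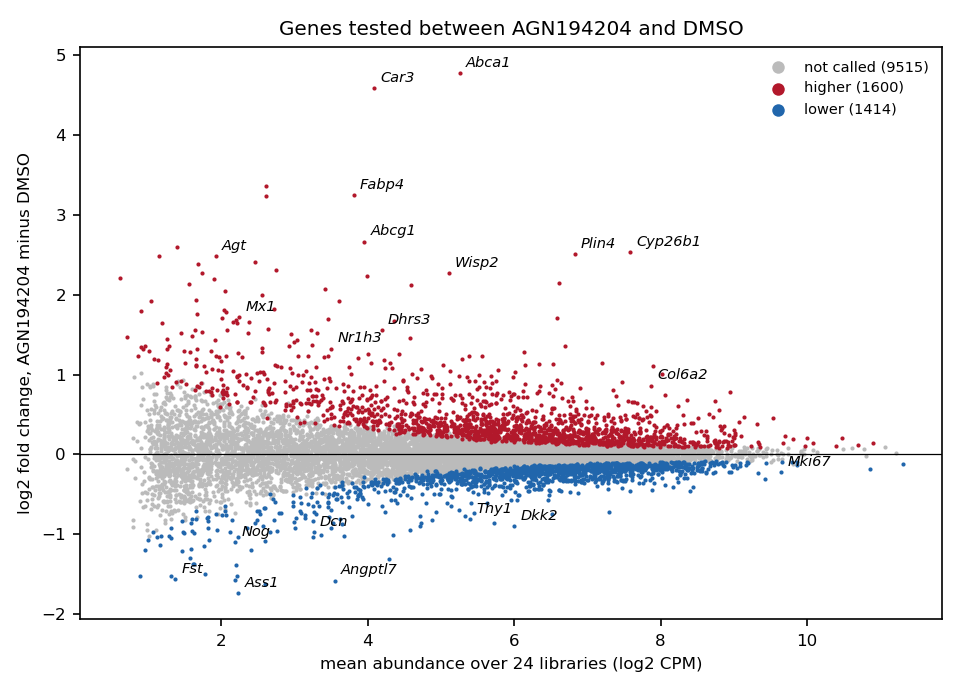
Log2 fold change, AGN194204 minus DMSO, of the 12529 genes tested against their mean abundance over 24 libraries in log2 CPM. Red points are the 1600 genes called higher, blue the 1414 called lower and grey the rest; rises reach 4.77 (Abca1) and the named falls reach -1.74 (Ass1).

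The cells carried the RNAs of most stromal markers listed. Of the 26 stromal marker genes tested, 8 rose and 8 fell, and with spike-in scaling 5 and 6. The other 5 of the 31 listed stayed below the count filter. Lepr had 8 counts in the DMSO libraries together and 17 with AGN194204. Lum had 0 and 2, Ngfr 0 and 6, Cd200 17 and 13 and Icam1 19 and 23. Thy1, the CD90 surface antigen used to define MSCs, ranged from 48.4 to 57.9 CPM with a median of 53.4 in DMSO and from 26.6 to 34.4 CPM with a median of 30.1 with AGN194204. The groups did not overlap (-0.81 ± 0.07, adjusted p = 5.0e-11). Dcn (-0.97), which encodes the small proteoglycan decorin, Mcam (-0.47) and Cd44 (-0.41), the hyaluronan receptor, also fell, while Pdgfrb (0.38), Ly6a (0.57), the Sca-1 antigen, and Foxc1 (0.45) rose. Ptprc, the pan-leukocyte CD45 gene, had 2 counts in the 6 DMSO libraries together and 1 in the 6 AGN194204 libraries. In bulk RNA fewer cells of a type and less RNA per cell cannot be told apart.

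Of 26 markers of macrophages and blood cells, 9 had no count in any of the 12 libraries, among them Adgre1, C1qa, Cd163 and Tyrobp. Their summed level was 57.4 to 64.6 CPM in DMSO and 60.2 to 72.4 with AGN194204. The summed level of 16 endothelial markers was 21.1 to 28.2 CPM in DMSO and 16.996 to 24.4 with AGN194204. Of these, 4 passed the count filter and 2 fell, among them Flt1 (-0.85), also with spike-in scaling. None of the 4 rose (1 at an unadjusted p under 0.05, 0 by DESeq2). The sum of 10 pericyte markers, among them Pdgfrb, was 386 to 441 CPM in DMSO and 425 to 518 with AGN194204. The sum of 19 mast cell, basophil and granulocyte markers was 183 to 196 CPM in DMSO and 181 to 200 with AGN194204. Of these, 3 passed the count filter, 1 rose and 1 fell, and with spike-in scaling 0 and 1. The sum of 19 chondrocyte genes was 168 to 207 and 165 to 194, and that of 10 osteoclast markers 116 to 126 and 111 to 142. That of 25 skeletal muscle genes was 11.1 to 14.3 and 11.2 to 17.1. The part of other cell types in the results below was not tested beyond these values.

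The LXR branch held the largest rise of the comparison. Of 14 LXR targets tested 12 rose and 0 fell, with a median of 0.61. Abca1, which exports cholesterol to apolipoprotein A-I, ranged from 5.35 to 11.1 CPM with a median of 6.61 in DMSO and from 181 to 245 CPM with a median of 201 with AGN194204. Every treated library lay far above the DMSO range, a 27.4-fold rise (4.77 ± 0.11, adjusted p = 8.8e-30). Nr1h3, which encodes LXRα and is itself an LXR target, ranged from 4.01 to 9.41 CPM with a median of 6.18 in DMSO and from 13.3 to 20.03 CPM with a median of 16.3 with AGN194204, also without overlap (1.33 ± 0.17, adjusted p = 1.1e-07). The gene of the other LXR, Nr1h2, was at 103 CPM in DMSO and 109.7 CPM with AGN194204 and was not called (0.10 ± 0.05, adjusted p = 0.19).

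Other LXR targets rose less. Abcg1 (2.66), which moves sterols to high-density lipoprotein, was next to Abca1, and Lpcat3 (0.80), which puts polyunsaturated chains into phospholipids, Srebf1 (0.57), the gene of the lipogenic factor SREBP-1, Scd1 (0.56), Scd2 (0.46) and Mylip (0.48), which marks the LDL receptor for degradation, rose by less than 2-fold. Srebf1 was at 92.2 ± 5.49 CPM (SD, n = 6) in DMSO and 137 ± 13.6 CPM with AGN194204. The sterol transporter genes Abcg5 and Abcg8 stayed below the count filter, with 1 and 3 counts in the DMSO libraries together and 6 and 7 with AGN194204.

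LXR and RXR pairs bind 2 copies of a short core spaced by 4 bases, a DR4 element. RefSeq promoter windows of 300 bases, from 250 before the annotated start to 50 after it (build GRCm38.p6), were found for 9028 of the 12529 genes. The exact repeat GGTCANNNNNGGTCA, read on both strands, was in 5 of those genes, all not called, and in 0 of the 10 LXR targets with a window. With 1 core base left free, a search added after the exact repeat was not found in the LXR list, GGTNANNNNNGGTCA was in 16 genes (0.177%). On the LXR list these were Abca1 and Srebf1, 2 genes in all. The looser form was in 0.335% of the genes called higher, 0.0924% of those called lower and 0.163% of those not called. The windows of Acsl3, which rose, and of Fasn, the fatty acid synthase gene, which was not called, held it too. The upstream bases of Abca1 and Srebf1 are shown 5′ to 3′ along the gene, with the match in capitals, because theirs are the windows on the LXR list that hold it. They span chr4:53159896-53159995, minus strand for Abca1 and chr11:60210592-60210691, minus strand for Srebf1. A match is a description of the letters and not a measured binding site.
Abca1: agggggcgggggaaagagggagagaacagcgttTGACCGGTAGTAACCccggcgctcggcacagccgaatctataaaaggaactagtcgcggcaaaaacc
Srebf1: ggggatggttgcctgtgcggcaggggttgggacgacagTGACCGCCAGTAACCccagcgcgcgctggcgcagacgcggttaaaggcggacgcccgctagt

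Lipid synthesis genes followed in part. Of 31 genes of fatty acid and triglyceride synthesis 14 rose and 1 fell. Beside the desaturases Scd1 and Scd2, Acss2 (0.72), which makes acetyl-CoA from acetate, Acaca (0.40), the first committed enzyme, and the fatty acid activating enzymes Acsl3 (0.40) and Acsl4 (0.33) rose. Fasn, the fatty acid synthase, was at 683 ± 39.6 CPM in DMSO and 724 ± 38.4 with AGN194204, and was not called (0.08 ± 0.04, adjusted p = 0.087), although it was without AGN194204 replicate 6 (0.11, adjusted p = 0.028). Of 31 genes of cholesterol synthesis and its control 10 rose and 0 fell, with a median of 0.09. Insig1 (0.46), which holds SREBP in the endoplasmic reticulum, and Lss (0.32) were among those that rose. With spike-in scaling 4 of the 31 rose.

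Most PPAR targets rose as well. Of 30 PPAR targets tested 23 rose and 0 fell, with a median of 0.34. Lpl is on this list and on the LXR list, so the counts of these lists are not independent. Plin4, a coat protein of lipid droplets, ranged from 33.4 to 46.3 CPM with a median of 35.9 in DMSO and from 184 to 263 CPM with a median of 218 with AGN194204. The groups lay far apart (2.51 ± 0.08, adjusted p = 5.6e-26). Angptl4, a secreted inhibitor of lipoprotein lipase, ranged from 133 to 149.7 CPM with a median of 143 and from 291 to 320.4 CPM with a median of 303, and Pdk4, a kinase that shuts off pyruvate dehydrogenase, from 49.6 to 57.9 CPM with a median of 51.1 and from 125 to 156 CPM with a median of 129. Neither gene overlapped between groups (1.11 ± 0.04, adjusted p = 1.2e-23 for Angptl4 and 1.36 ± 0.06, adjusted p = 1.6e-21 for Pdk4). Angptl4 and Pdk4 are also on a list of glucocorticoid-responsive genes, where 8 of 15 tested rose and 1 fell. Fgf21, a secreted metabolic hormone, rose by 1.82.

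Smaller rises ran through fatty acid oxidation, where 16 of 34 genes rose and 0 fell, with a median of 0.17. Cpt1a, which passes fatty acids to the mitochondria, was at 169 ± 11.5 CPM in DMSO and 231 ± 16.2 CPM with AGN194204 (0.45 ± 0.05, adjusted p = 1.7e-09). Pex11a (0.67), a factor of peroxisome division, Acadvl (0.31), Acaa2 (0.30) and Etfb (0.23) rose as well. Acadm (0.13 ± 0.06, adjusted p = 0.12), the medium-chain dehydrogenase, was not called. With spike-in scaling 9 of the 34 rose. The subunits of oxidative phosphorylation did not follow. Of the 57 tested 0 rose and 0 fell by edgeR or DESeq2, and 4 rose at an unadjusted p under 0.05, and the log2 fold changes of all 57 lay between -0.12 and 0.15.

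Regulators of fat cell formation rose in part. Pparg, the master regulator of fat cells, ranged from 42.1 to 47.3 CPM with a median of 43.7 in DMSO and from 64.2 to 72.5 CPM with a median of 69.5 with AGN194204, and the groups did not overlap (0.63 ± 0.06, adjusted p = 3.5e-10). Of 30 adipogenic regulators 13 rose, among them Ebf2 (1.46), Stat5a (0.82), Igf1 (0.51) and Ebf1 (0.32), and 1 fell, Klf5 (-0.32). Cebpb (0.03 ± 0.05, adjusted p = 0.72), an early inducer of Pparg, was not called. Of 21 genes known to hold adipogenesis back 8 rose, such as Gata3 (0.42), Foxo1 (0.33) and Klf2 (0.29), and 3 fell, Dlk1 (-0.30), Ccnd1 (-0.18) and Nr2f2 (-0.10), the last of which lost its call without AGN194204 replicate 6 (adjusted p = 0.060). With spike-in scaling 8 of the adipogenic regulators rose and 1 fell, and 4 of the genes that hold it back rose and 1 fell.

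Of 14 adipocyte markers tested 8 rose and 0 fell. Agt (2.49), the angiotensin precursor, Tusc5 (1.93), Lipe (0.81), the hormone-sensitive lipase, and Pnpla2 (0.55), the adipose triglyceride lipase, rose, while Dgat2, which makes triglyceride, was at 13.3 ± 2.08 CPM in DMSO and 13.6 ± 2.28 CPM with AGN194204 and was not called (0.03 ± 0.15, adjusted p = 0.90). Of 12 lipid droplet genes 9 rose, among them Bscl2 (0.48), the seipin gene; with spike-in scaling 6 did. Several late markers stayed near 0 counts and below the filter, without which 10 of 26 adipocyte markers rose and 0 fell. Adipoq, the adiponectin gene, had 1 count in the DMSO libraries together and 0 with AGN194204, Lep had 0 in both, and Ucp1 had 4 and 0. Cd36, a fatty acid transporter and PPAR target, had 0 counts in DMSO, which allows up to 3, and 24 with AGN194204, Cidec, which fuses lipid droplets, had 2 and 26, and Plin1 had 1 and 9. For single counts of this size no fold is given.

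The RAR branch rose in part. Of 18 RAR targets and retinoid enzymes tested 8 rose (44.4%) and 2 fell (11.1%), beside 12.8% and 11.3% of all genes tested. Dhrs3, which turns retinaldehyde back to retinol and is a retinoic acid target, ranged from 10.2 to 13.8 CPM with a median of 12.2 in DMSO and from 29.9 to 43.97 CPM with a median of 35.6 with AGN194204, without overlap (1.56 ± 0.12, adjusted p = 1.8e-12). Rarb, the RAR whose own gene retinoic acid induces, ranged from 39.6 to 54.2 CPM with a median of 48.1 and from 65.9 to 80.4 CPM with a median of 73.2, again without overlap (0.62 ± 0.07, adjusted p = 3.4e-09). Cyp26b1 (2.53), which breaks down retinoic acid, Rarres2 (2.39), the gene of the adipokine chemerin, Tgm2 (0.68), a transglutaminase, and Dhrs9 (0.66) rose. Crabp1 (-0.38), a retinoic acid carrier, and Rai14 (-0.18) fell. Of the other classic targets, Cyp26a1 had 2 and 7 counts in all, and Stra6, the membrane receptor of retinol-binding protein, had 34 and 91 and was below the filter.

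The promoter of Rarb is shown because it carries a repeat of cores spaced by 5 bases. The letters GTTCANNNNNNGTTCA, also a search added after the exact repeats were not found, were in 4 of 9028 genes (0.0443%) and, among the 10 genes of the RAR list with a window, in Rarb, from 52 to 37 bases before the start. Of those 4 genes 3 were not called. The stretch is chr14:16575477-16575576, minus strand, with the match in capitals.
Rarb: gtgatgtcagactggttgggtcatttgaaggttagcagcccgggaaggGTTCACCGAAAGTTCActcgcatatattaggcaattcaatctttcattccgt

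**Figure D2:**
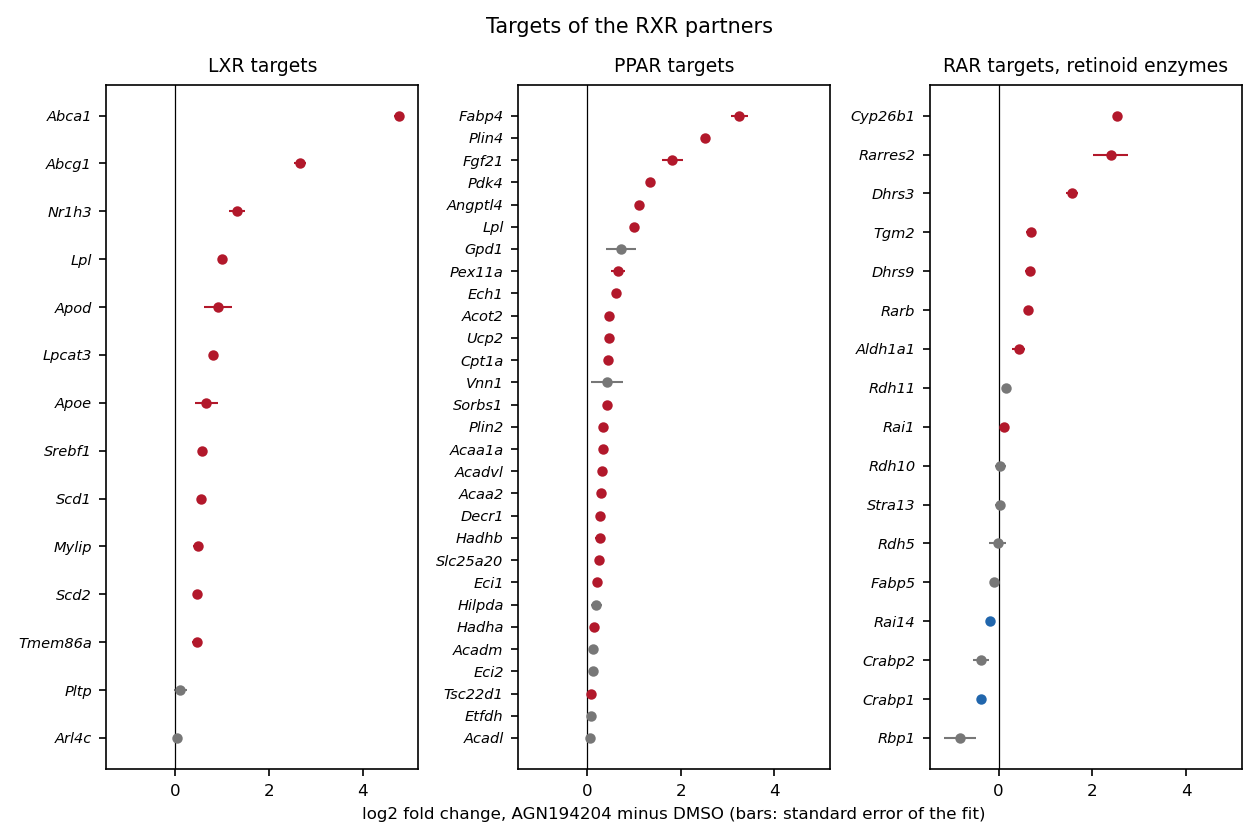
Log2 fold change, AGN194204 minus DMSO, of tested members of 3 lists of RXR partner targets, those not reported here left out, with the standard error of the fit as bars. Red points were called higher, blue points lower and grey points neither; 12 of the 14 LXR targets shown, 22 of 29 PPAR targets and 8 of 17 RAR targets and retinoid enzymes are red.

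The lists of the other partners were short. Of 8 vitamin D receptor targets 1 rose (12.5%), near the 12.8% of all genes tested, and 0 fell (1 at an unadjusted p under 0.05, 0 by DESeq2). The gene that rose was Klk6 (1.69), whose lowest DMSO library was at 0.468 CPM. Vdr itself was at 52.6 ± 4.55 CPM in DMSO and 47.3 ± 7.38 CPM with AGN194204. It was not called (-0.16 ± 0.08, adjusted p = 0.19), although it was without AGN194204 replicate 4 (-0.23, adjusted p = 0.048). Cyp24a1, the most sensitive vitamin D target, had 3 counts in DMSO and 0 with AGN194204. Of 7 thyroid hormone targets 4 rose and 2 fell. Hr (1.32), a corepressor gene, and Dio3 (0.68), which inactivates thyroid hormone, rose, and Dio2 (-1.53), which activates it, fell.

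Of 17 receptor genes tested Nr1h3, Pparg, Rarb, Thra (0.15) and Nr4a1 (0.20) rose, and Nr4a2 (-0.42) and Nr2f2 fell. The RXR genes were not called. Rxra was at 199 ± 10.98 CPM in DMSO and 194 ± 13.2 with AGN194204 (-0.03 ± 0.04, adjusted p = 0.63), and Rxrb at 155 ± 8.19 and 167 ± 9.14 (0.10 ± 0.05, adjusted p = 0.13), while Rxrg had no counts. Of 18 coregulators 0 rose (3 at an unadjusted p under 0.05, 0 by DESeq2) and 1 fell, Pprc1 (-0.12), and of the 12 fits that left out 1 library of these groups, Thra lost the call in 8 and Pprc1 in 7.

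AGN194204 was next compared directly with the other 2 agents, in the same fit. These contrasts and those with DMSO share libraries, so their counts are not independent. Against rosiglitazone, 1697 genes were higher (13.5% of those tested) and 1400 lower (11.2%) with AGN194204. Against tributyltin, given at 50 nM and not at 100 nM, 55 were higher (0.439%) and 51 lower (0.407%). The tributyltin contrast moves with the scaling, since 7 and 13 genes were called with spike-in scaling, and with single libraries, since 33 were lower without tributyltin replicate 3.

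Retinoic acid targets were among the genes higher than with tributyltin. Rarb had a mean of 47.9 ± 4.90 CPM (SD, n = 6) in DMSO, 73.5 ± 5.37 with AGN194204, 52.8 ± 4.37 with tributyltin and 33.8 ± 2.44 with rosiglitazone. Its libraries with AGN194204, from 65.9 CPM, all lay above the highest tributyltin library at 59.2 CPM (AGN194204 minus tributyltin, 0.47 ± 0.07, adjusted p = 2.8e-05). Tgm2 had 42.7 ± 4.74 CPM in DMSO, 68.5 ± 10.2 with AGN194204, 47.2 ± 7.37 with tributyltin and 29.3 ± 1.34 with rosiglitazone, and also differed from tributyltin (0.54 ± 0.09, adjusted p = 4.1e-04), as did Dhrs3 (0.53 ± 0.11, adjusted p = 0.0083). Against rosiglitazone the differences of Rarb (1.12 ± 0.07, adjusted p = 5.3e-15) and Dhrs3 (1.91 ± 0.13, adjusted p = 3.8e-14) were larger. Cyp26b1, at 414 ± 21.01 CPM with AGN194204 and 407 ± 13.8 with tributyltin, was not called between those agents (0.03 ± 0.04, adjusted p = 0.88).

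C3, Tnfaip2 and Nfkb2 were also higher than with tributyltin and were named after their values were seen. C3, the central complement component, differed by 1.13 ± 0.25, adjusted p = 0.010, Tnfaip2 by 0.79 ± 0.10, adjusted p = 6.9e-06 and Nfkb2, an NF-κB subunit, by 0.23 ± 0.05, adjusted p = 0.0048. C3 itself was not called against DMSO (0.11 ± 0.22, adjusted p = 0.77), and neither were Tnfaip2 (0.15) and Nfkb2 (-0.03).

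Fabp4, Pdk4, Plin4 and Lpl, all PPAR targets, and the collagen VI genes Col6a2 and Col6a3 were among the genes lower than with tributyltin. Fabp4, the fatty acid carrier of fat cells, had 21.5 ± 2.92 CPM with AGN194204, 36.3 ± 4.61 with tributyltin and 18.5 ± 2.48 with rosiglitazone, which gave a difference from tributyltin of -0.75 ± 0.11, adjusted p = 4.6e-05, and none called from rosiglitazone (0.22 ± 0.12, adjusted p = 0.19). Pdk4 (-0.44 ± 0.05, adjusted p = 2.4e-07), Plin4 (-0.30 ± 0.06, adjusted p = 0.0048) and Lpl (-0.20 ± 0.03, adjusted p = 8.6e-04) were lower as well. So were Col6a3 (-0.37 ± 0.05, adjusted p = 2.5e-05), Col6a2 (-0.36 ± 0.06, adjusted p = 2.4e-04) and Postn (-1.003 ± 0.20, adjusted p = 0.0050), the periostin gene, and Gdf15 (-0.64 ± 0.12, adjusted p = 0.0024), a stress-induced TGF-β family ligand.

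Of the genes called against DMSO, Abca1 and Abcg1 had the 2 largest differences above rosiglitazone. Abca1 had 7.24 ± 2.18 CPM with rosiglitazone, against 7.55 ± 2.34 CPM in DMSO, and the difference from AGN194204 was 4.85 ± 0.11, adjusted p = 1.2e-29. Abcg1 differed by 2.65 ± 0.13, adjusted p = 5.3e-19. Angptl4 had 221 ± 8.43 CPM with rosiglitazone, between DMSO and AGN194204, and differed from AGN194204 by 0.47 ± 0.04, adjusted p = 2.5e-12.

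**Figure D3:**
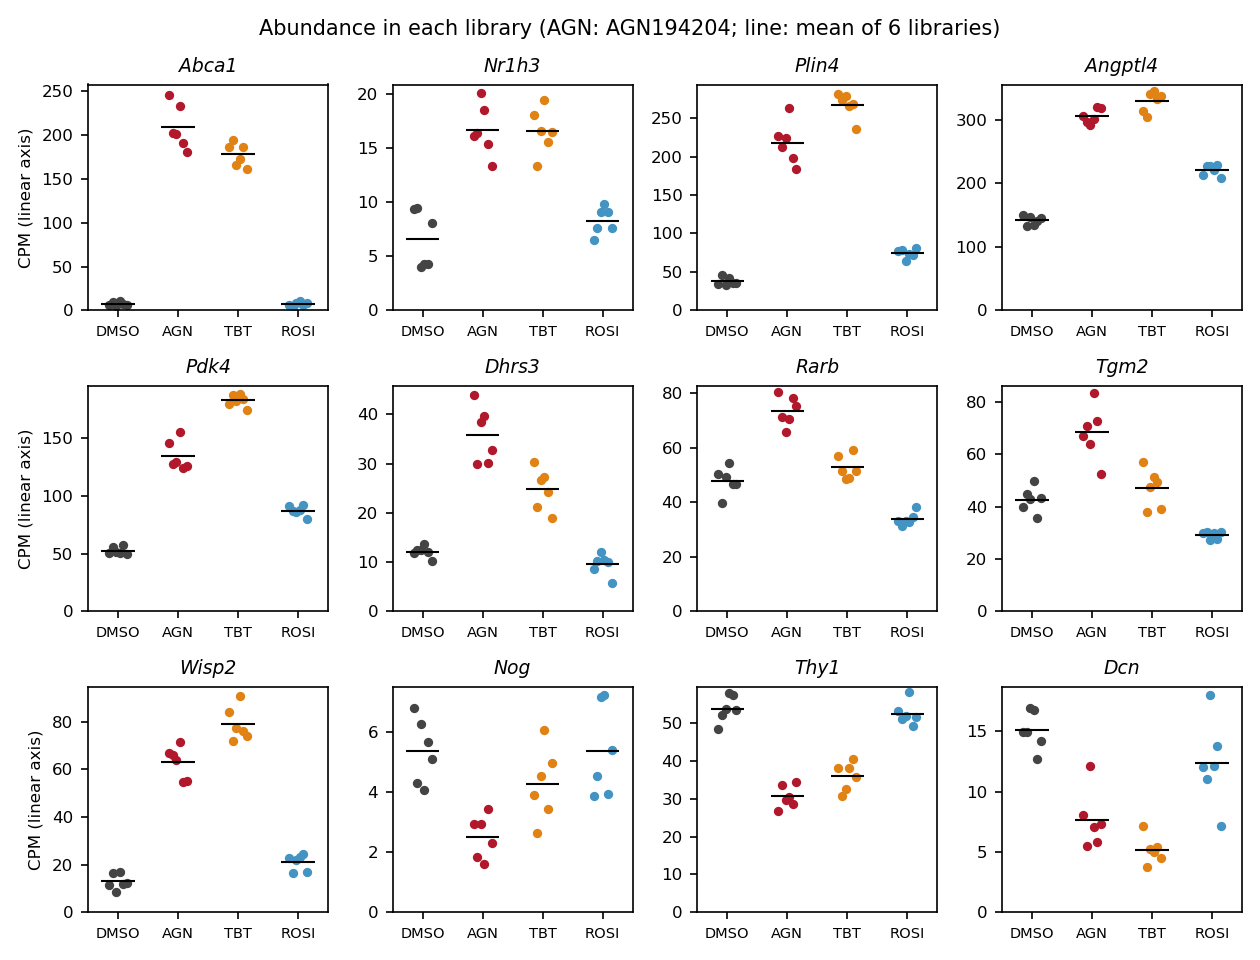
CPM on linear axes from 0 of 12 genes in every library of the 4 RNA groups, with the mean of 6 libraries as a line. Abca1 is near the DMSO level with rosiglitazone; Rarb, Tgm2 and Dhrs3 are highest with AGN194204, and Thy1 and Dcn are lower with AGN194204 than in DMSO.

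Interferon-stimulated genes rose together. Type I interferons signal through a complex with STAT2 and IRF9, which binds interferon-stimulated response elements (ISREs) and induces antiviral proteins. Of 15 signalling genes 9 rose and 0 fell. Stat2 ranged from 139.8 to 175 CPM with a median of 159.6 in DMSO and from 231 to 275 CPM with a median of 245 with AGN194204, without overlap (0.65 ± 0.07, adjusted p = 5.9e-09). Irf7 (0.90), Usp18 (0.93), a brake on the pathway, and Irf9 (0.48) rose, and the kinases Jak1 (0.05 ± 0.05, adjusted p = 0.49) and Jak2 (0.002 ± 0.07, adjusted p = 0.99) and the factor Irf1 (0.06 ± 0.07, adjusted p = 0.62) were not called.

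No interferon gene passed the count filter, and without that filter 0 of 9 ligand and receptor genes rose or fell. Ifnb1 had 9 counts in the DMSO libraries together and 14 with AGN194204, Ifna4 had 3 and 4, and Ifna1, Ifna2, Ifng, Ifnk, Ifnl2 and Ifnl3 had 0 in both. Of the 5 receptor genes tested 0 rose and 0 fell by edgeR or DESeq2, also at an unadjusted p under 0.05, with Ifnar1 at -0.01 ± 0.07, adjusted p = 0.95 and Ifnar2 at 0.12 ± 0.08, adjusted p = 0.30. Of 16 genes of nucleic acid sensing 11 rose and 0 fell. Tlr3 (1.12), Zbp1 (0.99), Dhx58 (0.77), Ddx58 (0.67), the RIG-I gene, and Ifih1 (0.49), the MDA5 gene, detect viral nucleic acids, while the kinase Tbk1 (-0.12 ± 0.08, adjusted p = 0.27), which relays their signal, was not called.

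Of 48 antiviral effector genes tested 45 rose and 0 fell, with a median of 0.73. In 37 of the 48 every AGN194204 library lay above every DMSO library, beside 6.90% of all genes tested. Mx1, a GTPase against influenza viruses, ranged from 0.848 to 3.62 CPM with a median of 2.19 in DMSO and from 3.83 to 11.1 CPM with a median of 6.16 with AGN194204 (1.72 ± 0.32, adjusted p = 6.8e-05). Isg15, a ubiquitin-like protein, ranged from 52.1 to 67.1 CPM with a median of 57.4 and from 66.8 to 85.2 CPM with a median of 82.8 (0.47 ± 0.08, adjusted p = 7.5e-06). Mx1 had no overlap, and Isg15 overlapped between the groups. Ifit3 (0.77), Oasl2 (0.65), Rsad2 (0.70), the viperin gene, Bst2 (0.51), the tetherin gene, Ddx60 (0.89), Parp14 (0.72), Xaf1 (0.76) and Rnf213 (0.78) rose. The 3 not called were Epsti1 (0.43), Ifitm2 (0.14, called without AGN194204 replicate 2 at adjusted p = 0.033) and Slfn9 (0.11).

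All 14 interferon-inducible GTPases tested rose, with a median of 0.86, and in mice these proteins attack the vacuoles of intracellular parasites. Igtp ranged from 27.3 to 43.6 CPM with a median of 36.9 in DMSO and from 56.7 to 83.05 CPM with a median of 69.6 with AGN194204, and Gbp3 from 66.3 to 84.8 CPM with a median of 72.95 and from 109 to 153 CPM with a median of 129. Neither overlapped (0.90 ± 0.11, adjusted p = 3.3e-08 and 0.82 ± 0.10, adjusted p = 7.3e-08). The near-identical Tgtp1 (1.23) and Tgtp2 (0.91), the Gbp and Oas1 copies and the H2 genes share sequence, and how the authors' counting split such reads is not given, so single values in these families are uncertain.

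Of 27 genes of MHC class I presentation 20 rose and 0 fell, with a median of 0.42. Tap1 (1.03 ± 0.12, adjusted p = 3.0e-08), the peptide transporter, Psmb9 (1.12) and Psmb8 (0.65), subunits of the immunoproteasome, Nlrc5 (1.10), the transactivator of these genes, and B2m (0.27), the light chain, rose. The chaperones Calr, Canx and Pdia3, which are not specific to the pathway, lay between -0.02 and 0.01 and were not called. Of 12 complement and acute phase genes 7 rose and 0 fell, among them Serping1 (0.95), the C1 inhibitor, C4b (1.004), Clu (0.73) and C1ra (0.51).

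The promoters of these genes were searched for the ISRE. The core GAAANNGAAA, searched on both strands, was in 335 of 9028 genes (3.71%), in 7.78% of the genes called higher, 2.77% of those called lower and 3.14% of those not called. It was in 16 of the 38 antiviral genes with a window (42.1%), in 5 of 20 MHC class I genes and in 10 of 10 GTPases. Stretches upstream of 6 rising genes are shown, with every match in capitals, and overlapping matches run together. On the other strand the core reads as its reverse complement. They span chr4:156200839-156200938, minus strand (Isg15), chr19:34640769-34640868, plus strand (Ifit1), chr5:120777680-120777779, minus strand (Oas3), chr3:142559944-142560043, plus strand (Gbp3), chr11:58199456-58199555, plus strand (Igtp) and chr11:48871421-48871520, minus strand (Irgm1).
Isg15: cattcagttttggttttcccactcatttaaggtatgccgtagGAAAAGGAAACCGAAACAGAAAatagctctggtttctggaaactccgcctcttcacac
Ifit1: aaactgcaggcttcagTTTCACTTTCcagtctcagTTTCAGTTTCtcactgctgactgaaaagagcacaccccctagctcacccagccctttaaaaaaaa
Oas3: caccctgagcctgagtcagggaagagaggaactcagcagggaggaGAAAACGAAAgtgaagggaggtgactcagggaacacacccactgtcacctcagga
Gbp3: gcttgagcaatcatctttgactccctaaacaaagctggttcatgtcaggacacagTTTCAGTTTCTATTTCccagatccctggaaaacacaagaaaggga
Igtp: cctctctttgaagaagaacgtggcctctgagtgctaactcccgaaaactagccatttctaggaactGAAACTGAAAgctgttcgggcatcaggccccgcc
Irgm1: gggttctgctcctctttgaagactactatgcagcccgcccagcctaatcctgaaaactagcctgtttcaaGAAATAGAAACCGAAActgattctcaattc

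**Figure D4:**
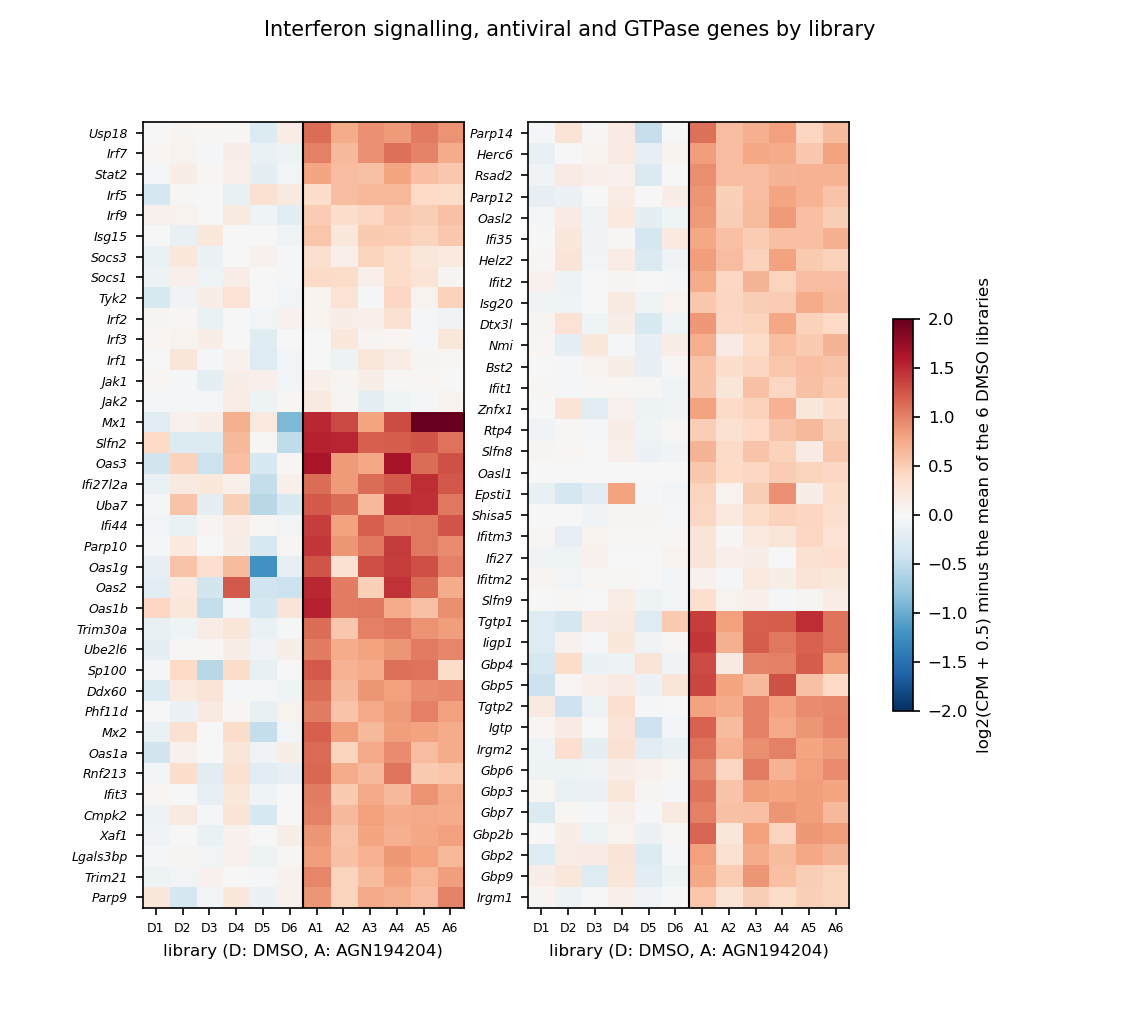
Heat map of tested interferon signalling, antiviral and GTPase genes (rows) in the 6 DMSO and 6 AGN194204 libraries (columns), as log2(CPM + 0.5) minus the mean of the 6 DMSO libraries, with colours saturated at -2 and 2. The AGN194204 columns are red for nearly every gene, and Jak1, Jak2, Irf1, Irf2 and Irf3 stay pale.

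Cytokines did not move as a block. Of 32 chemokines, cytokines and receptors 9 rose and 6 fell. Cxcl10 (0.67), Ccl5 (0.26), Il15 (1.51) and Ccl9 (1.68) rose. Il11, an IL-6 family cytokine of stromal cells, ranged from 10.6 to 17.2 CPM with a median of 13.3 in DMSO and from 4.33 to 8.48 CPM with a median of 6.74 with AGN194204 and fell without overlap (-1.03 ± 0.16, adjusted p = 6.7e-06). Il1rn (-0.97), Il33 (-0.86), Cx3cl1 (-0.65) and Cxcl1 (-0.56) fell as well, and Il6 (0.26 ± 0.40, adjusted p = 0.69) and Ccl2 (0.10 ± 0.08, adjusted p = 0.38) were not called.

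Proliferation genes fell by small amounts. Of 49 genes of DNA replication 31 fell and 0 rose, with a median of -0.20, and of 69 genes of mitosis and the kinetochore 38 fell and 0 rose, with a median of -0.18. Mki67, the Ki-67 antigen of cycling cells, ranged from 825 to 928 CPM with a median of 899 in DMSO and from 720.4 to 806 CPM with a median of 759 with AGN194204 (-0.22 ± 0.04, adjusted p = 1.4e-05). Top2a, which untangles sister chromatids, ranged from 516 to 545 CPM with a median of 534 and from 399 to 491 CPM with a median of 457 (-0.22 ± 0.04, adjusted p = 1.7e-05). Orc1 (-0.62), of the origin recognition complex, Mcm10 (-0.39), Pole (-0.37), Cenpf (-0.36) and Kif15 (-0.38) fell more. In 25 of the 69 mitotic genes every AGN194204 library lay below every DMSO library, beside 4.68% of all genes tested. With spike-in scaling 7 and 5 were called, and not Mki67, Top2a or Pole, while the medians were -0.18 and -0.17.

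Not every S phase or mitotic transcript followed. Rrm2 (0.02 ± 0.05, adjusted p = 0.84), Cdc20 (-0.04 ± 0.04, adjusted p = 0.60) and Plk1 (-0.08 ± 0.04, adjusted p = 0.13) were not called, and of 27 histone genes 2 fell and 0 rose, with 0 called under spike-in scaling. Of 37 cell cycle inhibitors and p53 targets 8 rose and 2 fell, and with spike-in scaling 6 and 0. Cdkn1c, which encodes the p57 inhibitor, ranged from 6.27 to 9.81 CPM with a median of 7.73 in DMSO and from 11.7 to 16.8 CPM with a median of 13.7 with AGN194204 (0.83 ± 0.19, adjusted p = 8.2e-04), and Btg2 (0.85), an antiproliferative gene, rose. Cdkn1a, the p21 gene, was at 52.2 ± 6.39 CPM in DMSO and 56.4 ± 6.92 CPM with AGN194204 and was not called (0.11 ± 0.08, adjusted p = 0.31).

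Many mitotic promoters carry a cell cycle homology region (CHR), here searched as TTTGAA, and CCAAT boxes. TTTGAA was in 38 of 55 mitotic genes with a window (69.1%), in 17.5% of the replication genes and in 13.8% of all 9028 genes, and CCAAT in 70.9%, 62.5% and 43.2%. Over the whole table TTTGAA was in 15.7% of the genes called lower and 13.6% of those not called. The stretches before Top2a (chr11:99024190-99024289, minus strand) and Kif11 (chr19:37376282-37376381, plus strand), which encodes a spindle motor protein, are shown with both motifs in capitals, where TTCAAA and ATTGG are their other strands.
Top2a: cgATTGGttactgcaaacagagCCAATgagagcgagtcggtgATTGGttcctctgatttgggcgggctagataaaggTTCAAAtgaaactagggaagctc
Kif11: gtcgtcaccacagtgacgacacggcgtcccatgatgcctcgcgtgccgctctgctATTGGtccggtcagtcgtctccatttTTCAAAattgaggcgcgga

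Among genes of the Polycomb system and of histone methylation, which the chromatin arm of the series addresses, more fell than rose. Of 47 tested 5 rose (10.6%) and 11 fell (23.4%), beside 12.8% and 11.3% of all genes tested. The share that rose was thus near that of all genes. Ezh2, the H3K27 methyltransferase, was at 151 ± 5.77 CPM in DMSO and 126 ± 6.68 CPM with AGN194204 (-0.27 ± 0.04, adjusted p = 4.8e-06), and it fell. Ezh1, its paralogue of resting cells, was at 30.04 ± 4.34 and 39.1 ± 3.93 CPM and rose (0.37 ± 0.09, adjusted p = 0.0032). Cbx2 (-0.43) and Kdm1a (-0.23) fell, and Phf1 (0.38) and the H3K27 demethylase Kdm6b (0.26) rose. Bmi1 (-0.03 ± 0.04, adjusted p = 0.64) was not called. With spike-in scaling 3 of the 47 rose and 2 fell.

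Most collagen genes rose. Of 23 collagen genes tested 19 rose and 0 fell, with a median of 0.29. Col6a2, a chain of the microfibrillar collagen VI, ranged from 141 to 174 CPM with a median of 152 in DMSO and from 239 to 329.7 CPM with a median of 276 with AGN194204, without overlap (0.86 ± 0.06, adjusted p = 7.0e-14). Its partner chains Col6a1 (0.51) and Col6a3 (0.47) rose less. Col28a1 (1.80), Col8a2 (1.52) and Col27a1 (1.23) rose more than 2-fold from lower levels, and the fibrillar Col1a1 (0.14) and Col3a1 (0.17) rose by less. Of 25 genes that process collagen 14 rose and 0 fell, such as Loxl4 (0.58), Loxl2 (0.49) and Plod2 (0.23), which cross-link it. With spike-in scaling 7 of the 25 rose, and not Plod2.

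Other matrix proteins were mixed. Of 36 elastic fibre and matrix glycoprotein genes 17 rose and 6 fell, and with spike-in scaling 11 and 0. Igfbp3 (1.15), a binder of insulin-like growth factors, Tnxb (0.79) and Thbs2 (0.67) rose, while Fbn1 (-0.28), the fibrillin of elastic microfibrils, and Fbln5 (-0.21) fell and Fn1 (-0.02 ± 0.03, adjusted p = 0.70), the fibronectin gene, was not called. Among proteoglycans Vcan (-0.45) and Dcn fell and Ogn (0.87) and Hspg2 (0.20) rose. Has1 (-0.85) and Has2 (0.44), which make hyaluronan, went in opposite directions.

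More bone-forming genes rose than fell. Of 22 osteoblast genes 9 rose and 2 fell, and with spike-in scaling 6 and 1. Alpl, the tissue-nonspecific alkaline phosphatase, ranged from 0.941 to 3.98 CPM with a median of 2.83 in DMSO and from 4.51 to 8.78 CPM with a median of 6.35 with AGN194204 and rose (1.29 ± 0.30, adjusted p = 0.0011). Phospho1 (1.51), a phosphatase of mineralising vesicles, and the homeobox gene Dlx3 (1.53) rose, and Enpp1 (-0.36), which makes the mineralisation inhibitor pyrophosphate, fell. Runx2 (-0.03 ± 0.05, adjusted p = 0.71), the factor that sets osteoblast fate, was not called, and Sp7 had 2 and 7 counts in all.

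Genes of the TGF-β, BMP and Wnt pathways moved both ways. In the TGF-β and BMP list of 42 genes 8 rose and 10 fell, and with spike-in scaling 5 and 5. Nog, the noggin gene, whose protein traps BMPs, ranged from 4.07 to 6.78 CPM with a median of 5.37 in DMSO and from 1.59 to 3.45 CPM with a median of 2.61 with AGN194204, without overlap (-1.10 ± 0.24, adjusted p = 7.3e-04). The BMP antagonist Grem1 (-0.29) fell too, as did Chrd (-0.98), which lost its call without DMSO replicate 6 (adjusted p = 0.061), and the BMP-induced Id1 (0.40), Id2 (0.28), Id3 (0.30) and Smad6 (0.58) rose. Bmp4 (0.07 ± 0.34, adjusted p = 0.91) was not called. Of 31 genes of the Wnt pathway 7 rose (22.6%) and 4 fell (12.9%), beside 12.8% and 11.3% of all genes tested. With spike-in scaling 3 of the 31 rose and 3 fell. Dkk2, a secreted Wnt modulator, ranged from 79.4 to 91.6 CPM with a median of 83.4 in DMSO and from 39.9 to 51.5 CPM with a median of 45.6 with AGN194204, and it had the smallest p of all falls (-0.90 ± 0.06, adjusted p = 1.0e-13). Sfrp2 (-1.04) and Dkk3 (-0.46) also fell, while the Wnt target Axin2 (-0.35 ± 0.16, adjusted p = 0.12) was not called. Wisp2 (Ccn5), a secreted protein of the CCN family, ranged from 8.69 to 16.95 CPM with a median of 12.2 and from 54.6 to 71.7 CPM with a median of 65.03 (2.27 ± 0.11, adjusted p = 3.6e-19).

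Growth factor genes moved both ways, with 11 of 43 higher and 9 lower, and with spike-in scaling 6 and 4. Pdgfb (1.76) rose, and Flt1 (-0.85), a VEGF receptor, Pdgfd (-0.45), Igf1r (-0.39) and Hgf (-0.27) fell. Of 20 Notch and hedgehog genes 4 rose (20%) and 3 fell (15%), beside 12.8% and 11.3% of all genes tested. With spike-in scaling 3 of the 20 rose and 1 fell. Dll1 (1.27), a Notch ligand, rose, and Notch1 (-0.71) fell.

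Some genes of polyamine and arginine metabolism fell. Of 15 genes of arginine and polyamine metabolism 5 fell and 0 rose (2 at an unadjusted p under 0.05, 0 by DESeq2). Odc1, the ornithine decarboxylase that starts polyamine synthesis, was at 98.4 ± 8.01 CPM in DMSO and 78.1 ± 3.70 CPM with AGN194204 (-0.33 ± 0.05, adjusted p = 5.8e-06). Sms (-0.32), the spermine synthase gene, fell with it, as did Ass1 (-1.74), which makes argininosuccinate. With spike-in scaling 2 of the 15 fell, and not Sms. Of 64 cytosolic ribosomal protein genes 0 rose and 0 fell by edgeR or DESeq2, also at an unadjusted p under 0.05.

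In the lists above that had a count of 0 in 1 direction, DESeq2 also made 0 calls that way, and 0 members passed an unadjusted p under 0.05 that way, apart from the exceptions given beside them.

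**Figure D5:**
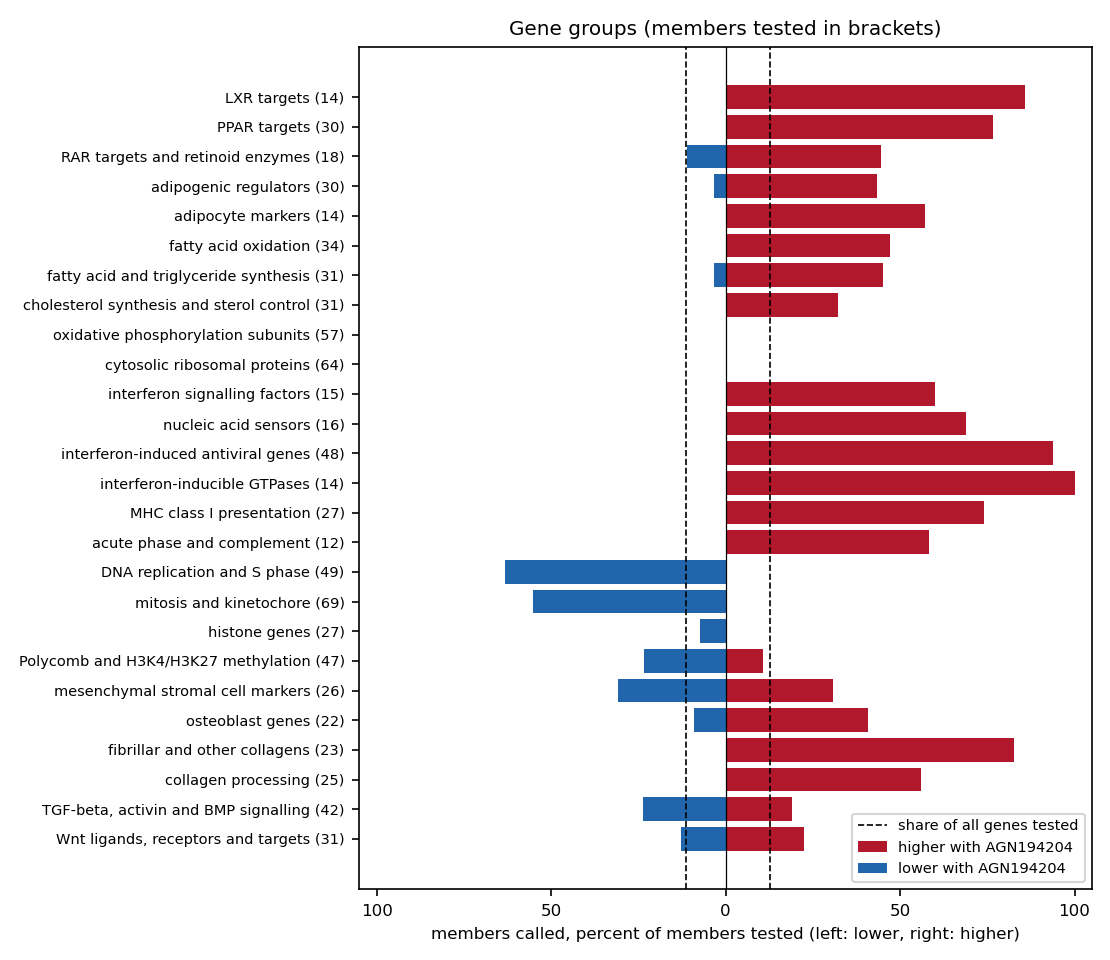
Share of the tested members of 26 gene groups that were called higher (bars to the right, red) or lower (bars to the left, blue) with AGN194204, in percent, with the number tested in brackets. Dashed lines mark the shares over all genes tested, 12.8% higher and 11.3% lower; interferon-inducible GTPases reach 100% higher, and no ribosomal or oxidative phosphorylation gene was called.

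Several of the widest changes were in genes outside these groups. Wnk4, a kinase that controls ion transport, ranged from 39.3 to 51.6 CPM with a median of 43.8 in DMSO and from 186 to 209 CPM with a median of 199 with AGN194204 (2.15 ± 0.06, adjusted p = 2.9e-28). Synpo, the actin-binding synaptopodin, ranged from 45.1 to 65.9 CPM with a median of 50.9 and from 152 to 199.7 CPM with a median of 169.8 (1.71 ± 0.08, adjusted p = 2.3e-20). Both were among the 10 rises with the smallest p. Hcar1 (2.31), the lactate receptor of fat cells, Pappa2 (2.27), a protease of IGF-binding proteins, Htra3 (2.12), Lctl (2.40) and Nrxn2 (2.20) rose more than 4-fold.

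Among the falls, Ngef, a guanine nucleotide exchange factor, ranged from 23.3 to 36.7 CPM with a median of 28.3 in DMSO and from 9.42 to 13.7 CPM with a median of 11.02 with AGN194204 (-1.31 ± 0.12, adjusted p = 5.5e-11). Ank3, the ankyrin-G gene, ranged from 182 to 225 CPM with a median of 203 and from 109 to 131 CPM with a median of 126 (-0.72 ± 0.05, adjusted p = 2.8e-13), and Hmga2, a chromatin protein of undifferentiated mesenchymal cells, from 303 to 319.6 CPM with a median of 314 and from 228 to 256 CPM with a median of 237 (-0.39 ± 0.04, adjusted p = 5.7e-11). No library of these 3 genes crossed between the groups. Syt13 (-0.86), Vgf (-0.75), a neuroendocrine secretory protein, Htr1b (-1.29), a serotonin receptor, and Syk (-1.04), a tyrosine kinase best known in blood cells, fell as well.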

How the data were processed

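RNA of mouse MSCs was sequenced in 24 libraries of 4 groups with 6 replicates each, as 75 nt paired-end reads from strand-specific libraries with ERCC spike-in RNAs, per the labels' protocols. The authors deposited raw read counts per gene symbol, and the 24 columns used were matched to samples by their headers. STAR, SAMtools, FastQC and DESeq2 and the builds GRCm38 and mm10 are named in the submitters' processing notes, without versions. The counting program, its strand setting and its annotation are not given in the sources used here. Reads of paralogs and of overlapping or antisense genes may be split in ways that change single values.

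From the counts, ERCC entries and entries for unassigned reads were removed. The 20.9% to 24.3% of reads given to no feature stayed out of library sizes. One edgeR 4.0.16 quasi-likelihood fit (R 4.3.3, TMM scaling, filterByExpr) of all 24 libraries gave each contrast, with Benjamini-Hochberg adjustment over 12529 genes and a threshold of 0.05. The standard error is the log2 fold change divided by the square root of F. Library measures were compared by exact two-sided permutation tests over 924 arrangements, whose smallest p is 0.00216. Fits were checked on simulated counts.

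Alternatives were RLE and ERCC scaling, DESeq2 1.42.0, other low-count filters, a replicate block, 12-library fits and leaving out each library. No 2 replicates agreed within sampling noise (chi-square per gene 1.35 to 2.75).

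The comparison, the gene lists and the rule for named genes were chosen with earlier results of these data known, so list counts are descriptions. Lists also share members, such as Plin4 in the PPAR, adipocyte and lipid droplet lists, so their counts are not independent. The rule named the 20 largest called changes each way among genes whose log2 CPM averaged 1 or more, groups that do not overlap and no predicted symbol. It also named the 10 smallest p each way, the 10 largest called differences each way from TBT and from ROSI among genes called against DMSO, and in each list the 4 members with the smallest p and the receptors it is built on; further list members were named for their known roles after their values were seen. Promoter sequences came from RefSeq (GRCm38.p6) and matched by symbol for 9028 genes. The limit of 3 counts given for a count of 0 covers counting error only. The deposited normalised table and the chromatin files were not used here. A few genes that the rule or the lists named are not reported here, though list counts include them.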

Additional observations from a re-analysis of the deposited data

Results flagged for a closer look

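Within each group of 6 libraries, the highest or lowest CPM of a named gene stood apart from the other 5 in 27 of 466 gene and group pairs, by a gap to its neighbour that passed Dixon's 95% critical value for 6 samples. Chance flags about 1 in 20 such groups, and no cause was tested. In DMSO, the highest library stood apart for Ccl5 in replicate 3 (68.9 CPM, next 66.2), Enpp1 in replicate 4 (155 CPM, next 146), Epsti1 in replicate 4 (5.42 CPM, next 2.82) and Fgf21 in replicate 6 (5.73 CPM, next 2.74). The same held for Isg15 in replicate 3 (67.1 CPM, next 57.7), Loxl2 in replicate 4 (122 CPM, next 109) and Nr2f2 in replicate 2 (344 CPM, next 330). In AGN194204, the highest library stood apart for Bmp4 in replicate 1 (3.66 CPM, next 2.48), Has1 in replicate 4 (8.88 CPM, next 5.63), Klf2 in replicate 4 (141 CPM, next 129) and Rsad2 in replicate 1 (156 CPM, next 133). The same held for Sms in replicate 6 (36.7 CPM, next 29.4). In DMSO, the lowest library stood apart for Cdc20 in replicate 2 (132 CPM, next 144), Col27a1 in replicate 5 (17.2 CPM, next 26.2), Dio2 in replicate 6 (1.06 CPM, next 2.94) and Ebf2 in replicate 1 (8.65 CPM, next 12.7). The same held for Flt1 in replicate 1 (5.15 CPM, next 7.21), Klk6 in replicate 1 (0.468 CPM, next 2.45), Pdgfd in replicate 2 (14.3 CPM, next 21.8) and Plk1 in replicate 3 (209 CPM, next 224). It also held for Psmb8 in replicate 3 (6.02 CPM, next 8.23). In AGN194204, the lowest library stood apart for Cenpf in replicate 4 (163 CPM, next 197), Has2 in replicate 4 (35.1 CPM, next 49), Igfbp3 in replicate 3 (2.03 CPM, next 4.1) and Isg15 in replicate 2 (66.8 CPM, next 79). The same held for Klf5 in replicate 1 (82.8 CPM, next 98.1) and Thra in replicate 5 (88 CPM, next 99.7). Isg15 had a high DMSO library and a low AGN194204 library, which is where its groups overlapped. Of the AGN194204 libraries, replicate 4 stood apart for Cenpf, Has1, Has2 and Klf2, and leaving it out gave the lowest counts of calls against DMSO among the 12 fits that each left out 1 library, 1424 higher and 1189 lower.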

How the results depend on the processing

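Scaling by spike-in totals left 908 genes higher and 300 lower against DMSO, 7 higher and 13 lower against TBT, and 184 lower against ROSI. The 1208 calls against DMSO were all among the 3014 made with TMM scaling, and 75.2% of them were higher. The median log2 fold change of all genes tested against DMSO was then 0.009. Without a low-count filter, 26314 genes were tested and 71 were lower than DMSO by at least 2-fold. DESeq2 called 2902 genes against DMSO, of which 2892 were also called by edgeR. In a fit of the 12 libraries compared, 31 genes were higher than TBT.

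Leaving out 1 library at a time gave 1424 to 1616 genes higher and 1189 to 1415 lower than DMSO, with 132 to 161 and 30 to 37 past 2-fold. Against TBT these fits gave 43 to 66 higher and 33 to 66 lower, the 33 without TBT replicate 3. Against ROSI they gave 1438 to 1742 higher and 1107 to 1360 lower; each such fit tested its own set of genes.

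The labels do not say whether the replicate numbers pair the libraries. Same-numbered AGN194204 and DMSO libraries had correlations of -0.028 to 0.071, and differently numbered ones of -0.129 to 0.137. Replicate 2 had the most counts on genes in each of the 4 groups, and what the numbers mark was not tested. With the replicate block, 3264 genes were called against DMSO, 2994 of them shared with the fit without it, and 83 were higher and 86 lower than TBT.

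Of 233 named genes, 0 that were called against DMSO, in the fit reported or in the alternative, changed sign in that alternative; some uncalled genes near 0, such as Bmp4 and C3, did. Spike-in scaling ended the calls of 23, namely Ccnd1, Col3a1, Ezh1, Fbln5, Fbn1, Foxo1, Hgf, Hspg2, Id2, Kdm1a, Kdm6b, Kif11, Klf13, Mki67, Nr2f2, Plod2, Pole, Postn, Pprc1, Rai14, Sms, Thra and Top2a. Nr2f2, Postn, Pprc1, Sfrp2 and Thra lost their calls without the low-count filter, and Pprc1 also with DESeq2, RLE scaling or a filter of at least 1 CPM in 6 libraries, which tested 14332 genes, more than the filter used here. Leaving out 1 library ended the call of Postn in 9 fits, Thra in 8, Pprc1 in 7, and Nr2f2 and Chrd in 1 each.

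The share of antiviral promoters with the interferon element was 42.1% and rose to 97.4% with 1 core, which 86.9% of all genes with a promoter window held. The LXR element went from 0% to 20% of its list with 1 core base free, and the RAR element from 0% to 10% with looser cores; the looser forms were chosen after the data were seen. Genes below the count filter were tested only in the fit without it or with the CPM filter.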

Other observations

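Gene groups outside lipid metabolism, interferon response and cell division also held calls, and their members were named after their values were seen. Of 24 amino acid transporters tested, 8 rose and 1 fell, among them the neutral amino acid transporters Slc43a1 (0.998 ± 0.22, adjusted p = 5.1e-04) and Slc43a2 (0.92 ± 0.13, adjusted p = 4.0e-07). Of 40 semaphorins, ephrins and other axon guidance genes, 12 rose and 8 fell. Nrxn2, a neurexin of synaptic contacts, went from 1.08 ± 0.526 CPM in DMSO to 5.02 ± 1.04 CPM (mean ± SD, n = 6), and Ntn1, a secreted netrin, from 49.5 ± 6.91 to 85.4 ± 5.90 CPM. Plxnb1, a semaphorin receptor, fell from 31.9 ± 4.75 to 16.5 ± 2.77 CPM. In these 3 genes the groups did not overlap.

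Of 11 Kruppel-like factors, 6 rose and 2 fell, with Klf11 at 0.67 ± 0.07, adjusted p = 6.0e-09 and Klf13 at -0.30 ± 0.06, adjusted p = 2.4e-04 on the log2 scale; the call of Klf13 was lost with spike-in scaling. Of 19 circadian clock genes, 4 rose and 3 fell, and the clock output factor Dbp had the highest change (0.63 ± 0.09, adjusted p = 2.7e-06). Of 36 genes of the ATF4 and ER stress responses, 10 rose and 2 fell, with Sesn2 at 0.50 ± 0.08, adjusted p = 3.0e-06 and Chac1 at 0.38 ± 0.05, adjusted p = 1.9e-07. Of 21 smooth muscle and myofibroblast genes, 6 rose and 0 fell, with 12 higher and 0 lower at an unadjusted p under 0.05 in edgeR; the actin-binding protein Lmod1 changed by 0.84 ± 0.11, adjusted p = 1.3e-07. All adjusted p are from edgeR's quasi-likelihood test. Over all tested genes 12.8% were higher and 11.3% lower. With DESeq2, 0 of the smooth muscle genes fell as well. With spike-in scaling, 3 amino acid transporters rose and 0 fell, 11 guidance genes rose and 2 fell, 4 Kruppel-like factors rose and 1 fell, 3 clock genes rose and 0 fell, and 10 stress genes rose and 0 fell. The medians of the lists lay between 0.02 and 0.13 on the log2 scale, beside -0.0027 over all tested genes.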
